A study of Mus musculus with 16 samples.

Results

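Complement components and receptors were followed in spinal cord RNA of 16 transgenic mice through 9 genes, namely *C1qa*, *C1qb*, *C1qc*, *C3*, *C4b*, *C3ar1*, *C5ar1*, *Itgam* and *Itgb2*. They were taken by symbol, and all 9 were present among the 18167 genes of the deposited table. Complement is a cascade of secreted proteins in which the recognition protein C1q starts the classical pathway, C4 and C3 are then cleaved, and C3 fragments stay bound to the surface that was recognised. The small fragments C3a and C5a act on receptors of their own, and phagocytes take up material tagged with C3 fragments through complement receptor 3, a pair of integrin chains. In the central nervous system microglia are a major source of C1q, and complement takes part in the removal of synapses by microglia during development.

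Mutant mice carried human profilin 1 with the G118V change (Tg(Prnp-PFN1*G118V)838Kiaei/J, on C57BL/6N), and wild-type mice carried the unchanged human profilin 1 (Tg(Prnp-PFN1)850Kiaei/J, on C57BL/6N). Both transgenes were driven by the mouse prion protein promoter, which is active in many cell types, so every mouse had a human transgene and no mouse without a transgene was compared. The young groups, wild-type (WY) and mutant (MY), had 3 mice each, all 50 days old. The mutant old group (MO) had 5 mice of 175 to 245 days, taken when they could no longer right themselves, and the wild-type old group (WO) had 5 mice of 190 to 294 days. Each mouse gave 1 library. All young mice and replicates 1 to 3 of WO and MO were in library batch 1, and replicates 4 and 5 of WO and MO were in batch 2. The WO mice were 190 days old in batch 1 and 294 days old in batch 2, so within WO age and batch cannot be told apart. Expression was given as log2(1 + FPKM) after adjustment for batch, where FPKM is the number of fragments of a gene scaled to its transcript length and to the size of the library. Read counts were not analysed here, so the depth behind a gene is unknown.

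The libraries carried the markers of their labelled tissue. All 6 *Hox* genes examined were expressed, with *Hoxb8* the most abundant at a mean of 5.75 on the log2 scale, whereas of 3 forebrain genes *Emx1* and *Tbr1* stayed under 0.5 in every mouse and *Neurod6* was at 1.39 to 1.73. All mice were labelled male, but MO replicate 5 went against that label. *Xist*, the RNA that coats the inactive X chromosome of female cells, was at 3.21 in MO replicate 5 and at most 0.37 in the other 15 mice. *Ddx3y*, a gene of the Y chromosome, was at 1.95 in MO replicate 5 and at least 4.06 in the other 15 mice. The main counts of called genes that rest on MO are therefore given with and without this library.

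All 9 complement genes were higher in MO than in MY, with an FDR at or below 0.05 and a fold change of at least 1.5 (limma), against 4.90% of all genes called in that comparison and 4.11% called higher. All 9 were also higher in MO than in WO, against 4.60% of all genes called and 4.08% called higher. These comparisons share the MO mice and are given side by side. The median difference over the 9 genes was 2.16 on the log2 scale in MY vs. MO, where the median of all genes was 0.0047, and 2.07 in WO vs. MO, where it was 0.00035. Between the wild-type ages (WY vs. WO) 0 of 9 were called, against 0.253% of all genes, and 1 had an unadjusted p under 0.05, as did 13.5% of all genes. The median difference was 0.016, with 5 of 9 above 0, but WO holds mice of both batches and WY of batch 1 only. Within batch 1 the WY to WO differences ran from 0.10 for *C3* to 0.81 for *C4b*, where the median of all genes was 0.0066. Of these, *C4b* was called in the batch 1 mice alone, against 0.402% of all genes. Between the young genotypes (WY vs. MY) 0 of 9 were called, against 0.00550% of all genes, and 0 had an unadjusted p under 0.05, against 7.16% of all genes. For each of the 9 genes the lowest MO mouse lay above the highest of the 11 other mice, a separation that 7.58% of all genes showed. In whole tissue, more cells of a type and more RNA per cell cannot be told apart.

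Without MO replicate 5 all 9 genes were again called in both comparisons. Of all genes, 5.03% were then called in MY vs. MO and 4.71% in WO vs. MO. The median difference of the 9 genes was 2.21 in MY vs. MO and 2.12 in WO vs. MO, with a highest FDR of 0.0106 and 0.00146. The 4 other MO mice lay above the 11 mice outside MO for all 9 genes, as they did for 8.25% of all genes.

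**Figure D1:**
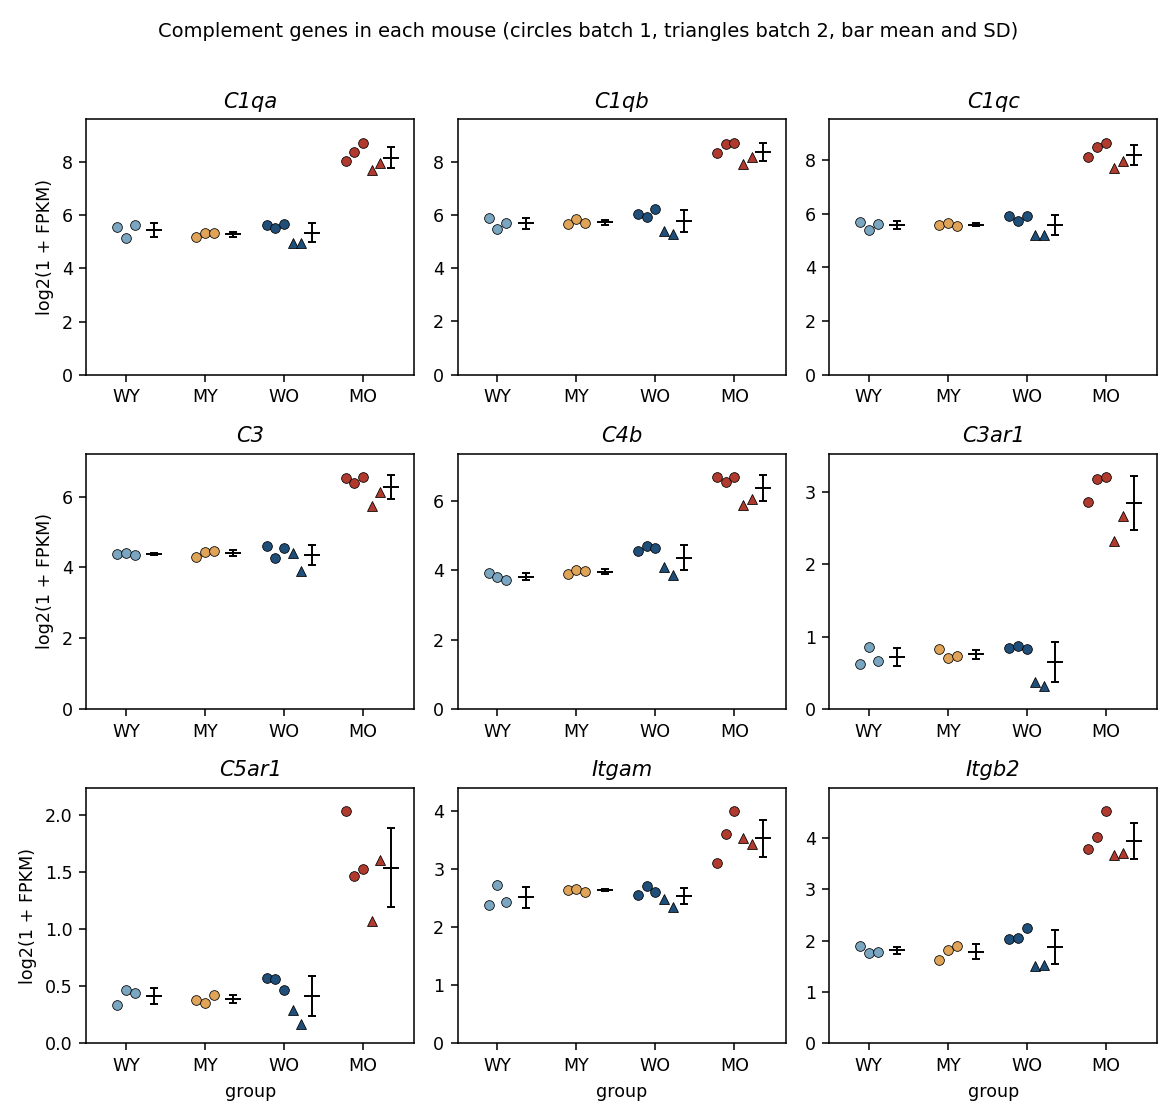
Level of the 9 complement genes in each mouse, as log2(1 + FPKM) on a vertical axis scaled separately in each panel, by group (WY and MY with 3 mice, WO and MO with 5), with circles for batch 1, triangles for batch 2 and bars for the group mean and SD. The 5 MO mice lie above the 11 other mice in every panel, and the triangles of WO and MO tend to lie below the circles of the same group.

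The C1q chains, which bind the target and start the classical pathway, had the highest levels of the 9 genes and the largest differences on the log2(1 + FPKM) scale. *C1qa* encodes the A chain. It was at 5.54, 5.13 and 5.63 in WY, 5.17, 5.34 and 5.34 in MY, and 5.62, 5.52, 5.68, 4.95 and 4.95 in WO. In MO it reached 8.06, 8.37, 8.73, 7.72 and 7.96. The 11 mice outside MO spread over less than 1 unit, and the lowest MO mouse, replicate 4, was 2.03 above the highest of them. The difference was 2.82 in WO vs. MO (SE 0.21, FDR 2.16e-05) and 2.88 in MY vs. MO (SE 0.20, FDR 0.000203).

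*C1qb*, the B chain, was at 5.88, 5.49 and 5.71 in WY, 5.66, 5.84 and 5.71 in MY, and 6.06, 5.94, 6.22, 5.40 and 5.31 in WO. Its MO values were 8.35, 8.67, 8.73, 7.92 and 8.20, with no overlap. The B chain differed by 2.59 in WO vs. MO (SE 0.21, FDR 2.16e-05) and by 2.64 in MY vs. MO (SE 0.17, FDR 0.000203). *C1qc*, the C chain, was at 5.41 to 5.69 in WY, 5.54 to 5.67 in MY and 5.19 to 5.91 in WO. The MO mice had 8.11, 8.47, 8.65, 7.69 and 7.98, again apart from the other groups. Its difference was 2.60 in WO vs. MO (SE 0.21, FDR 2.16e-05) and 2.59 in MY vs. MO (SE 0.20, FDR 0.000212).

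On the FPKM scale, which is per transcript length, *C1qb* averaged 337 ± 76.3 (SD, n = 5) in MO and 55.8 ± 15.2 (SD, n = 5) in WO. The means of *C1qc* were 297 ± 78.6 in MO and 48.2 ± 11.9 in WO (SD, n = 5 each), and those of *C1qa* 296 ± 84.3 and 40.7 ± 10.02. The mean FPKM followed the order *C1qb*, *C1qc*, *C1qa* in each of the 4 groups, but the ranges of mean ± SD of the chains overlapped in WY, WO and MO, and in MY *C1qa* (38.0 ± 2.62, SD, n = 3) lay below *C1qc* (47.3 ± 2.20). Below the chains came *C3* and *C4b*, then *Itgam* and *Itgb2*, then *C3ar1* and *C5ar1* in each group. The level of *C1qb* minus that of *C1qc* in the same mouse lay between 0.08 and 0.31 on the log2 scale in all 16 mice. The level of *C1qa* minus that of *C1qb* lay between -0.53 and -0.36 in WO and between -0.29 and 0.01 in MO, ranges that did not overlap, while WY spread from -0.35 to -0.08 and MY from -0.49 to -0.37. This within-mouse difference was not tested.

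The 3 chains lie next to each other in the order *C1qb*, *C1qc*, *C1qa* at chr4:136880129-136898803 (GENCODE M21 on GRCm38, the assembly mm10), a stretch of 18675 bases, and all are transcribed from the minus strand. Of all pairs among the 9 genes, *C1qb* and *C1qc* had the most similar profiles over the 16 mice, with a root mean square difference of 0.065 between the profiles after each was centred on its own mean. The pairs *C1qa* with *C1qc* at 0.14 and *C1qa* with *C1qb* at 0.14 came next.

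Because the chains moved together, their promoters were searched for GAGGAA, a core sequence bound by the myeloid transcription factor PU.1, on both strands (as GAGGAA or TTCCTC). The RefSeq promoter table (GRCm38.p6), with 250 bases before and 50 after each gene's start, held 6 of the 9 genes, and *C1qa*, *C4b* and *Itgb2* were not among them. The sequences of *C1qb* at chr4:136886151-136886450 and *C1qc* at chr4:136892865-136893164, both on the minus strand, are printed 5′ to 3′ with the match in capitals.
C1qb: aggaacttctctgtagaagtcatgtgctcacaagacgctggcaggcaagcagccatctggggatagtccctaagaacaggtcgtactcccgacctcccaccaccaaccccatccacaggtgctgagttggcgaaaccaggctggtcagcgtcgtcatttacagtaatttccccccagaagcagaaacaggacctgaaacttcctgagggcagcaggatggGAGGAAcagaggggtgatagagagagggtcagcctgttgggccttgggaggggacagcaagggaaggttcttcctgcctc
C1qc: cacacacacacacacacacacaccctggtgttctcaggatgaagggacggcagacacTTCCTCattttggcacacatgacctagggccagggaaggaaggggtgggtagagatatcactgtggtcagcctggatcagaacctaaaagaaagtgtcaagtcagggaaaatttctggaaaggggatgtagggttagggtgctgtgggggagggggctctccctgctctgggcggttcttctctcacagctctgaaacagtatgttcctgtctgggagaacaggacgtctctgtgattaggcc
The *C1qb* promoter held 1 match in the forward orientation, starting at base 221, and the *C1qc* promoter held 1 match in the reverse orientation, starting at base 58. Of the other 4 members in the table, *Itgam* had 3 matches and *C3*, *C3ar1* and *C5ar1* had 0, so that 3 of the 6 held a match. Of 32851 promoters of the same length, 28.3% held at least 1 match, and a match is a description of the sequence only.

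*C3* encodes the central component, whose cleavage product is deposited on surfaces. It was at 4.39, 4.40 and 4.35 in WY, 4.30, 4.44 and 4.47 in MY, and 4.62, 4.28, 4.56, 4.40 and 3.90 in WO. In MO it was at 6.54, 6.40, 6.56, 5.73 and 6.13. The lowest MO mouse, replicate 4, was 1.12 above the highest other mouse, WO replicate 1. The difference was 1.92 in WO vs. MO (SE 0.18, FDR 3.97e-05) and 1.87 in MY vs. MO (SE 0.18, FDR 0.000365). Mean FPKM was 78.0 ± 17.4 in MO and 19.7 ± 3.82 in WO (SD, n = 5 each).

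*C4b*, the mouse gene for C4 of the classical and lectin pathways, was at 3.91, 3.81 and 3.71 in WY and at 3.89, 4.01 and 3.96 in MY. In WO it was at 4.55, 4.69, 4.63, 4.08 and 3.85, and in MO at 6.68, 6.55, 6.67, 5.87 and 6.06. MO was apart from all other mice, and the WO mice of batch 1 stood above every young mouse whereas WO replicate 5 lay within the range of WY. The difference was 2.00 in WO vs. MO (SE 0.21, FDR 7.67e-05) and 2.41 in MY vs. MO (SE 0.19, FDR 0.000247).

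*C4b* was the gene of the 9 whose WY vs. WO difference had an unadjusted p under 0.05. The difference was 0.55 (SE 0.19, FDR 0.251) over all WY and WO mice, short of the threshold. Among the batch 1 mice alone, with WO mice of 190 days, it was 0.81 (FDR 0.00956), which passed, and with batch as a term of the fit it was 0.81 (FDR 0.00538). The mean of *C4b* was 4.63 in the 3 WO mice of batch 1 and 3.97 in the 2 WO mice of batch 2. Within mice, the level of *C3* minus that of *C4b* was 0.49 to 0.63 in WY and 0.42 to 0.51 in MY, and -0.42 to 0.32 in WO and -0.15 to 0.07 in MO, so that the young mice did not overlap with the old. This was not tested.

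*C4b* has a near copy, *C4a*, also on chromosome 17, and reads may be shared between them. The longest GENCODE M21 transcripts of the pair were identical at 96.1% of 5367 aligned bases, and 35.2% of the 50-base windows of *C4b* occurred in a *C4a* transcript. *C4a* stayed between 0.21 and 0.35 on the log2 scale in all 16 mice, with a difference of -0.02 in WO vs. MO (SE 0.034, FDR 0.736). How the submitters' quantification assigned shared reads was not tested, so the values of *C4b* and *C4a* may include reads of the other.

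*C3ar1* encodes the receptor of the C3a fragment. It was at 0.62, 0.85 and 0.66 in WY, 0.83, 0.71 and 0.73 in MY, and 0.85, 0.87, 0.83, 0.37 and 0.32 in WO. In MO it was at 2.87, 3.18, 3.20, 2.31 and 2.66. The groups outside MO stayed under 1, and every MO mouse was above 2. The difference was 2.20 in WO vs. MO (SE 0.18, FDR 2.48e-05) and 2.09 in MY vs. MO (SE 0.19, FDR 0.000317).

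*C5ar1* encodes the receptor of the C5a fragment and had the lowest level of the 9 genes in each group. It was at 0.33, 0.47 and 0.44 in WY, 0.38, 0.36 and 0.42 in MY, and 0.57, 0.56, 0.47, 0.29 and 0.17 in WO. The MO values were 2.03, 1.46, 1.52, 1.07 and 1.61. MO replicate 1 was the highest and replicate 4 the lowest, still 0.49 above WO replicate 1. The difference was 1.13 in WO vs. MO (SE 0.15, FDR 0.000396) and 1.15 in MY vs. MO (SE 0.18, FDR 0.0024).

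Differences on the log2(1 + FPKM) scale understate the change of low genes. The ratio of mean FPKM between MO and WO was 10.8 for *C3ar1*, with means of 6.37 ± 1.81 and 0.591 ± 0.294 (SD, n = 5 each). For *C5ar1* it was 5.81, with means of 1.97 ± 0.720 and 0.340 ± 0.161. For comparison the same ratio was 7.27 for *C1qa*, 6.05 for *C1qb*, 6.17 for *C1qc*, 3.96 for *C3*, 4.16 for *C4b*, 2.24 for *Itgam* and 5.37 for *Itgb2*. The C3a receptor thus had the largest ratio of the 9 genes, from a mean below 1 FPKM in WO, where the 2 mice of batch 2 gave the lowest values. Without MO replicate 5 the ratio was 11.2 for *C3ar1*, 5.76 for *C5ar1* and 7.56 for *C1qa*.

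Complement receptor 3 is made of *Itgam*, the integrin alpha M chain known as CD11b, and *Itgb2*, the beta 2 chain that also pairs with other alpha chains. *Itgam* was at 2.37, 2.72 and 2.44 in WY, 2.64, 2.66 and 2.61 in MY, and 2.56, 2.70, 2.61, 2.47 and 2.34 in WO. The 5 MO mice were at 3.11, 3.59, 3.99, 3.52 and 3.43. The gap between the lowest MO mouse, here replicate 1, and the highest other mouse was 0.39, the smallest of the 9 genes. Its difference was also the smallest of the 9, at 0.99 in WO vs. MO (SE 0.14, FDR 0.000431) and 0.89 in MY vs. MO (SE 0.16, FDR 0.00535).

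*Itgb2* was at 1.89, 1.76 and 1.78 in WY, 1.62, 1.82 and 1.90 in MY, and 2.03, 2.06, 2.25, 1.5 and 1.53 in WO. In MO it was at 3.78, 4.02, 4.52, 3.67 and 3.70. No mouse outside MO exceeded 2.25, which was the level of WO replicate 3. The difference was 2.07 in WO vs. MO (SE 0.19, FDR 3.97e-05) and 2.16 in MY vs. MO (SE 0.19, FDR 0.000297).

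The pair changed places in MO. The level of *Itgb2* minus that of *Itgam* was negative in all 11 mice outside MO, from -1.02 to -0.36, and positive in all 5 MO mice, at 0.67, 0.43, 0.53, 0.15 and 0.27. Mean FPKM was 14.7 ± 4.23 for *Itgb2* and 10.8 ± 2.64 for *Itgam* in MO, and 2.74 ± 0.845 and 4.82 ± 0.542 in WO (SD, n = 5 each). The same reversal of order was not tested as a difference between genes.

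**Figure D2:**
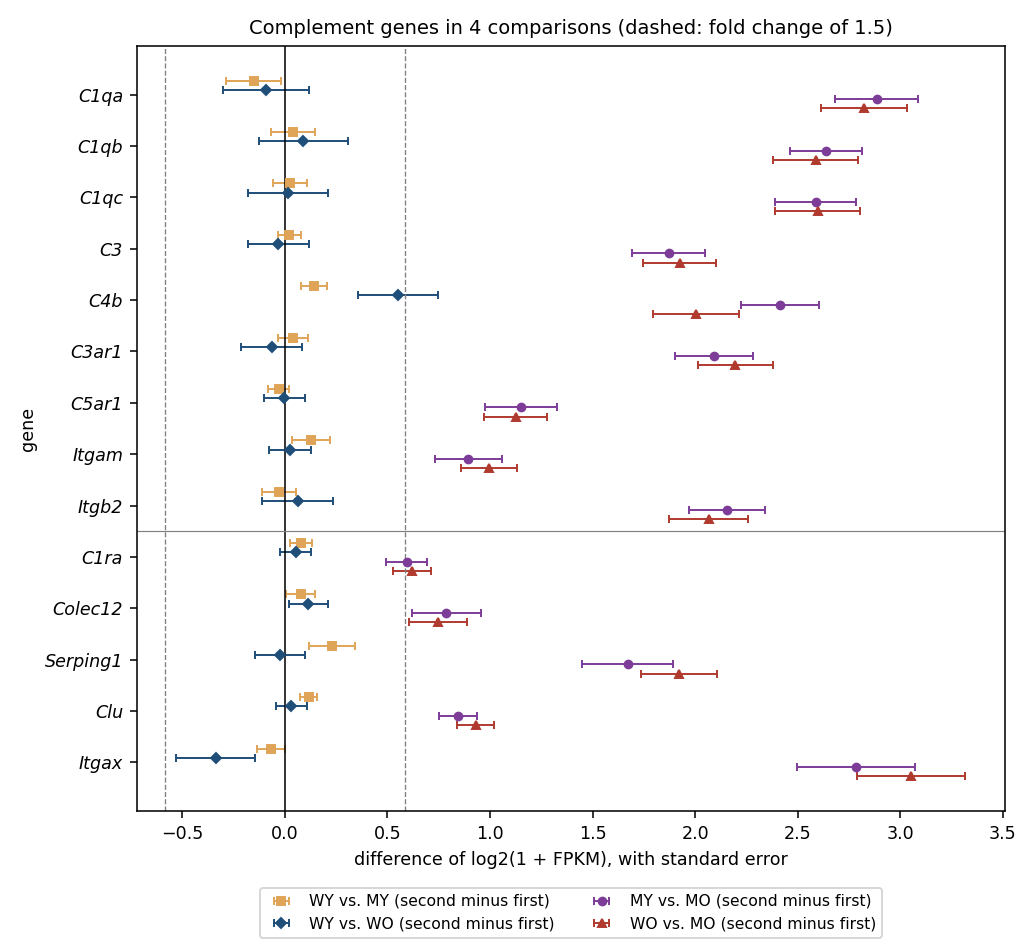
Difference of log2(1 + FPKM) with its standard error on the horizontal axis for the 9 complement genes (above the line) and 5 other complement genes called in both comparisons with MO (below the line), in 4 comparisons of the second group minus the first. In WO vs. MO the 9 genes run from 0.99 (*Itgam*) to 2.82 (*C1qa*), and in WY vs. MY they lie between -0.15 and 0.14.

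The difference of the age effects between genotypes, (MO - MY) - (WO - WY), was called higher for all 9 genes, against 5.61% of all genes called and 4.65% called higher. It had a median of 2.09 and ran from 0.87 for *Itgam* (SE 0.20, FDR 0.00925) to 2.98 for *C1qa* (SE 0.31, FDR 6.43e-05). Without MO replicate 5 all 9 were again called, with a median of 2.15, against 5.72% of all genes called. For *Itgam* the call was lost among the batch 1 mice alone (0.82, FDR 0.0569).

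Differences between WO and MO were present within each batch. In batch 1 they ran from 0.94 for *Itgam* to 2.78 for *C1qa*, and in batch 2, with 2 mice a group, from 1.07 for *Itgam* to 2.89 for *C1qa*. Both MO mice of batch 2 lay above both WO mice of batch 2 for 9 of 9 genes, as they did for 31.0% of all genes. Replicate 5, which went against its male label, was among these MO mice. Without replicate 5, batch 2 held only MO replicate 4, of 224 days, beside WO mice of 294 days. Young mice were all in batch 1, where the MY to MO differences ran from 0.93 for *Itgam* to 3.10 for *C1qa*.

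Within a group, the batch 2 mice were lower than the batch 1 mice. The WO mean was lower in batch 2 for 9 of 9 genes, and for 8 of them both batch 2 mice lay below all 3 batch 1 mice, against 15.5% of all genes. The MO mean was lower in batch 2 for 9 of 9 genes as well, and for 7 of them both batch 2 mice lay below all batch 1 mice, against 9.10% of all genes. For *C1qb* the batch 2 mean minus the batch 1 mean was -0.71 in WO and -0.52 in MO, and for *C4b* it was -0.66 in WO and -0.67 in MO. Over all genes, 50.2% had a lower WO mean and 50.5% a lower MO mean in batch 2. MO replicate 4, of batch 2 and 224 days old, was the lowest MO mouse for 8 of the 9 genes, and MO replicate 3, of batch 1 and 245 days old, was the highest for 7. Batch 2 held no young mice, so MO made up a larger share of batch 2 than of batch 1, and the covariates of the batch adjustment are not given. Of all genes, 4.08% were called higher in WO vs. MO, so the shares over all genes are mostly those of genes without a step in MO. They are not a like reference for these 9 genes. The parts of batch and of its adjustment in this spread were not tested.

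Of 51 other complement genes looked for, 40 were in the table. In MY vs. MO 6 of the 40 were called higher, against 4.11% of all genes, and 0 lower, with a median difference of 0.031. In WO vs. MO also 6 were called higher, against 4.08% of all genes, and 0 lower, with a median of 0.019. Among the genes called in both comparisons with MO were *C1ra*, *Colec12*, *Serping1*, *Clu* and *Itgax*. Without MO replicate 5 the count was 5 in each comparison, since *C1ra* fell short of the fold threshold at 0.55 in MY vs. MO (FDR 0.00808) and 0.58 in WO vs. MO (FDR 0.00212). In WY vs. WO 0 of 40 were called, and 2 had an unadjusted p under 0.05 (5.00% against 13.5% of all genes). In WY vs. MY 0 of 40 were called, and 5 had an unadjusted p under 0.05 (12.5% against 7.16% of all genes).

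*Itgax*, the alpha X chain that joins *Itgb2* in complement receptor 4, was at 0.41, 0.41, 0.32, -0.27 and -0.32 in WO, where negative values come from the batch adjustment. In MO it was at 2.66, 3.23, 4.10, 2.85 and 2.96, without overlap. The difference was 3.05 in WO vs. MO (SE 0.27, FDR 2.9e-05), above that of each of the 9 genes, and 2.78 in MY vs. MO (SE 0.29, FDR 0.000483), below that of *C1qa* (2.88). *Serping1*, which encodes the inhibitor of the C1 proteases, was at 2.21, 2.09, 2.28, 2.00 and 1.79 in WO and 4.46, 3.99, 4.11, 3.30 and 4.12 in MO. It differed by 1.92 in WO vs. MO (SE 0.18, FDR 4.85e-05).

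The proteases that C1q carries were expressed at low level. *C1ra*, for the protease C1r, differed by 0.62 in WO vs. MO (SE 0.092, FDR 0.000703). *C1s1*, for the protease C1s, had a difference of 0.52 (SE 0.084, FDR 0.00117), under the fold threshold. Among fluid-phase and surface regulators, *Clu*, for clusterin, differed by 0.93 (SE 0.089, FDR 4.86e-05). *Colec12*, a scavenger collectin, differed by 0.75 (SE 0.14, FDR 0.00298). *Cd55*, which speeds decay of the C3 convertase, was at 2.58 to 2.76 in WO and 2.04 to 2.36 in MO, a difference of -0.45 (SE 0.062, FDR 0.000434) that did not reach the fold threshold. Its difference of age effects was called, at -0.60 (SE 0.094, FDR 0.000628).

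Of the alternative pathway, *Cfp* (properdin) was the most abundant of 2 genes in the table, with a WO vs. MO difference of -0.19 (SE 0.12, FDR 0.286). The other, *Cfb* (factor B), differed by 0.19 (SE 0.045, FDR 0.00975), under the fold threshold. The terminal pathway, which builds the membrane attack complex, had 0 of 5 genes called. *Hc* (C5), *C7*, *C8a* and *C8b* stayed under 0.5 in every mouse. *C8g*, the most abundant, had a difference of 0.02 (SE 0.093, FDR 0.917). Complement proteins that reach the tissue from the liver through the blood are not measured by these RNA levels.

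Microglial markers also differed between the groups. Of 12, 8 were called higher in WO vs. MO and 0 lower, with a median of 1.07, and 8 in MY vs. MO, with a median of 0.89. Without MO replicate 5 the count was again 8 in each, with *P2ry13* in place of *Tmem119* in MY vs. MO. *P2ry12*, *Sall1*, *Siglech* and *Tmem119* were not called in WO vs. MO, with differences of 0.10, -0.01, 0.26 and 0.49. The summed FPKM of the 12 markers was 194, 205, 213, 164 and 158 in WO and 393, 529.9, 570.3, 420.1 and 415.5 in MO. In the young mice it was 188, 189 and 187 in WY and 188, 200.3 and 193 in MY. The part of microglia in the complement values was not tested.

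Set against the mean of the microglial markers in the same mouse, the 9 genes were not alike. *C1qa* minus that mean was 1.56 to 2.05 in WO and 3.21 to 3.97 in MO, and the WO to MO change in this difference was 1.77. The change was 1.54 for *C1qb* and 1.55 for *C1qc*, and between 0.88 and 1.15 for *C3*, *C4b*, *C3ar1* and *Itgb2*. For these 7 genes every MO mouse stood above the 11 others, as it did for 0.760% of all genes after the same subtraction. For *Itgam* the change was -0.05, with -1.09 to -0.92 in WO and -1.20 to -0.77 in MO, and for *C5ar1* it was 0.08, so that for both MO overlapped with the other groups on this scale, which understates the change of low genes. As FPKM relative to the summed FPKM of the markers in the same mouse, a measure added after the values were seen, *C5ar1* was at 0.079% to 0.253% in WO and 0.261% to 0.785% in MO, above all other mice, and *Itgam* was at 2.40% to 2.77% in WO and 1.94% to 2.61% in MO. On this relative measure the WO to MO change on the log2 scale was 2.25 for *C3ar1*, the largest of the 9 genes, and 1.54 for *C1qa*. The mean summed FPKM of the markers was 2.50 times as high in MO as in WO. On the log2(1 + FPKM) scale the change within batch 1 and within batch 2 was 1.79 and 1.75 for *C1qa*, 1.03 and 0.64 for *C3*, 0.15 and -0.04 for *C5ar1*, and -0.04 and -0.07 for *Itgam*. The other 5 genes had changes of 1.01 to 1.58 in batch 1 and 0.86 to 1.56 in batch 2. No test was made of these differences.

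**Figure D3:**
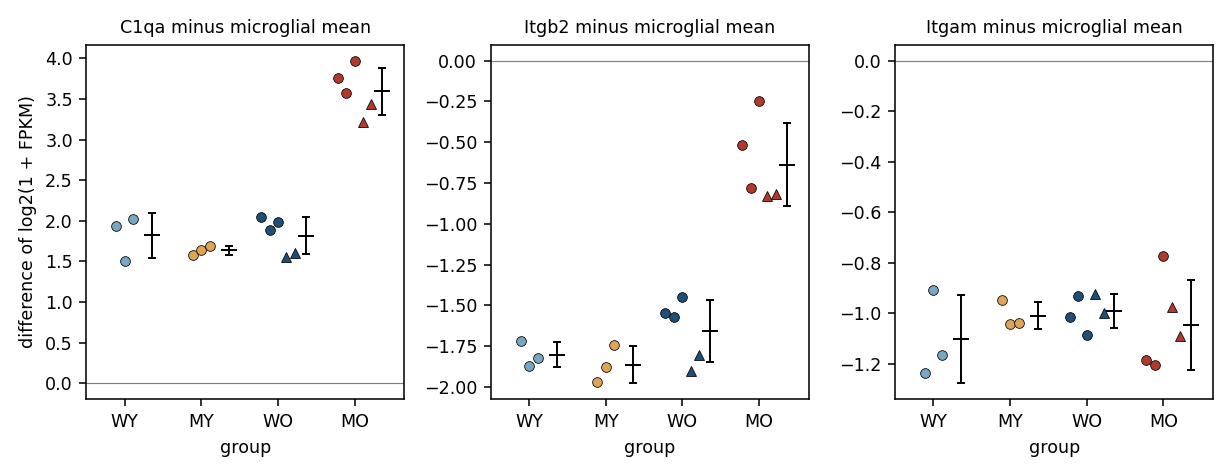
Level of *C1qa*, *Itgb2* and *Itgam* minus the mean of 12 microglial markers in the same mouse, as a difference of log2(1 + FPKM) on a separate scale in each panel, by group, with circles for batch 1, triangles for batch 2 and bars for the mean and SD. The MO mice stand above the other mice for *C1qa* and *Itgb2* and among them for *Itgam*.

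Of 6 markers of border macrophages, *Ms4a7* was the gene called in WO vs. MO, at 0.18, 0.21, 0.15, 0.02 and -0.09 in WO and 1.94, 2.00, 2.90, 0.91 and 2.18 in MO. *Pf4*, the most abundant of them, was at 0.46 to 1.09 in WO and 0.55 to 1.43 in MO. The summed FPKM of the 6 was 1.11 to 2.37 in WO and 3.39 to 9.48 in MO. Of the monocyte markers *Ccr2*, *Ly6c2* and *Plac8* stayed under 0.5 in every mouse, and 0 of 5 were called. *Ly6c1*, the most abundant of that list, is also known from endothelial cells. Of the T cell markers *Cd3e*, *Cd3d*, *Cd3g*, *Cd4* and *Cd8a* stayed under 0.5, *Lck*, the most abundant, was at 0.20 to 0.55 in WO and 0.60 to 0.71 in MO, and 0 of 6 were called. For B cells 0 of 2 were called. Among 7 neutrophil markers 0 were called, and their summed FPKM was 3.52 to 37.5 in WO, with the highest value in WO replicate 2, and 0.84 to 8.46 in MO.

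Astrocyte markers were called higher for 3 of 8 genes in WO vs. MO (median 0.39), and *Gfap*, the most abundant, differed by 1.60 (SE 0.10, FDR 1.46e-05). Their summed FPKM was 1924 to 2142 in WO and 3457 to 4482 in MO. In the same comparison 0 of 8 neuronal, 0 of 4 oligodendrocyte precursor, 0 of 6 meningeal fibroblast, 0 of 4 Schwann cell, 0 of 4 blood and 0 of 3 choroid plexus markers were called. Called lower were 1 of 6 motor neuron markers (*Chat*, -0.67), 1 of 6 oligodendrocyte markers and 1 of 5 endothelial markers (*Slco1c1*, -0.61). Without MO replicate 5 these counts were 1, 0 and 2, the last with *Cdh5* at -0.60, and that of astrocyte markers was again 3. In MY vs. MO 2 of 8 astrocyte markers were called higher and 3 of 6 oligodendrocyte markers lower (median -0.60), or 4 of 6 without MO replicate 5, and 0 of the motor neuron and endothelial markers were called. The difference of the age effects was called higher for 3 of 8 astrocyte, 8 of 12 microglial and 1 of 6 border macrophage markers. It was called lower for 3 of 6 motor neuron markers, *Chat* (-0.85), *Slc5a7* (-0.75) and *Slc18a3* (-0.64), and for 0 of 6 oligodendrocyte and 0 of 5 endothelial markers. Their part in the complement values was not tested.

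For each of the 9 genes, the 3 genes outside them with the most similar profile over the 16 mice were taken, by the root mean square difference of centred log2(1 + FPKM) profiles. For *C1qa* they were *Trem2* at 0.12, *Mpeg1* at 0.15 and *Tyrobp* at 0.21. For *C1qb* they were *Cd48* at 0.13, *Mpeg1* at 0.14 and *Trem2* at 0.14, and *C1qc* had the same 3 at 0.10, 0.11 and 0.13. *C3* was nearest to *Slc11a1* at 0.14, *Ly9* at 0.14 and *Apoe* at 0.15.

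*C4b* had the least similar neighbours, *Ctss* at 0.19, *Lgals3bp* at 0.21 and *Fcgr3* at 0.23. *C3ar1* was nearest to *Cd84* at 0.10, *AF251705* at 0.11 and *Ctsd* at 0.11, and *C5ar1* to *Ctse* at 0.10, *Inpp5d* at 0.10 and *Sla* at 0.13. *Itgam* was nearest to *Klrb1b* at 0.10, *Cx3cr1* at 0.11 and *Gna15* at 0.12. *Itgb2* was nearest to the cathepsin genes *Ctsz* at 0.11, *Ctsd* at 0.13 and *Ctss* at 0.15. The profiles of all 16 mice include the step between MO and the other groups, so genes with a step of like size are near by this measure.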

How the data were processed

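The authors deposited log2(1 + FPKM) values of 18167 genes in 16 mice. By their account these came from Trimmomatic, TopHat on mm10 and Cufflinks, genes at 0 in at least 8 mice were dropped, and batch was adjusted with parametric ComBat. Versions, annotation and ComBat covariates are not given in the sources used here. The adjustment left 915 values below 0. FPKM was recovered as 2 to the value, minus 1.

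Each comparison of 2 groups used limma 3.58.1 in R 4.3.3 on those groups alone (two-sided, second minus first), and the difference of the age effects used 1 fit of all 16 mice, with Benjamini-Hochberg adjustment over all genes and calls at an FDR of 0.05 or less and a fold change of 1.5 or more in either direction. The procedure was tested on simulated data. Errors reflect the spread between mice only. The members and lists were chosen with earlier results of these data known. Named were the 9 genes, other complement genes called in any comparison or most abundant in their list, the most abundant and near-absent markers of each list, and the 3 nearest genes per member. Other markers were named after their values were seen. The results of 4 genes are not reported here. Alternatives were batch 1 only, batch as a term, genes with a mean of at least 1, log2(FPKM + 0.1), 1 fit of all groups, quantile normalization, an intensity trend, treat, FDR alone, a replicate block and each mouse left out. *C4b* was aligned to *C4a* as transcripts with Biopython 1.88, since protein sequences were not used here.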

Additional observations from a re-analysis of the deposited data

Results flagged for a closer look

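The change with age differed between the genotypes, by the test of that difference over all 16 mice, for each of the 9 genes. The difference of the age effects was 2.98 for *C1qa*, 2.55 for *C1qb* and 2.57 for *C1qc*. It was 1.90 for *C3* and 1.86 for *C4b*. For the receptors it was 2.16 (*C3ar1*), 1.15 (*C5ar1*), 0.87 (*Itgam*) and 2.09 (*Itgb2*). Of the other complement genes it was called higher for *Itgax* (3.12), *Serping1* (1.69), *Clu* (0.81) and *Colec12* (0.67), and lower for *Cd55* (-0.60). Of the motor neuron markers it was called lower for *Chat* (-0.85), *Slc5a7* (-0.75) and *Slc18a3* (-0.64). It was called higher for 8 of 12 microglial (median 0.949), 3 of 8 astrocyte and 1 of 6 border macrophage markers, against 4.65% of all genes.

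In groups of 5 mice (WO and MO), a mouse was taken to stand apart by its gap to the nearest other mouse relative to the range. This was examined in 116 groups of levels, within-mouse differences, ratios and summed FPKM, and 6 had such a mouse, where chance gives about 1 in 20. None of the 18 groups of the 9 genes or the 22 of other complement genes and *C4a* had one. The level of *C3* minus that of *C4b* was 0.072 in MO replicate 5 and -0.15 to -0.11 in the other MO mice. MO replicate 5 also stood apart for *Xist* (3.21) and *Ddx3y* (1.95). WO replicate 4 was apart for *Mbp* (5.36) and for *Slco1c1*, at 3.83. The summed FPKM of the neutrophil markers was 37.5 in WO replicate 2 and at most 8.55 in the other WO mice.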

How the results depend on the processing

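Of the fits of single members under the alternatives, 799 kept their direction and side of the threshold, or stayed uncalled, and none reversed a called direction. All 9 members stayed called in MY vs. MO and WO vs. MO with each mouse left out in turn. Across those fits, 4.43% to 5.57% of all genes were called in MY vs. MO and 4.33% to 5.09% in WO vs. MO. *C4b* in WY vs. WO passed the threshold in 3 settings, so that 1 member was called in the batch 1 mice alone (FDR 0.00956), with batch as a term (FDR 0.00538) and with the replicate block (0.81, FDR 0.0483), where 0.402%, 0.440% and 0.347% of all genes were called, and over all its alternatives the difference ran from 0.47 to 0.81. The block uses replicates 1 to 3 there, all of batch 1. *Itgam* lost its call in 3: with treat against a fold change of 1.2 in MY vs. MO (FDR 0.0514) and in the difference of age effects (FDR 0.118), and in batch 1 alone in the latter (FDR 0.0569). With FDR alone the other complement genes called numbered 11 of 40 in MY vs. MO (8 higher and 3 lower, 27.5% against 25.6% of all genes), 15 in WO vs. MO (10 higher and 5 lower, 37.5% against 27.9%) and 1 in WY vs. WO (lower, 2.50% against 1.12%). Relative to the microglial markers, the WO to MO change moved from 0.08 to 1.32 for *C5ar1* and from 1.15 to 2.25 for *C3ar1* when FPKM was divided by the summed marker FPKM, an alternative chosen after seeing the data. The labels number the mice within each group and do not say that the numbers pair them. The correlations of same-numbered deviations ran from -0.21 to 0.38. They cannot decide whether mice were paired, since different-numbered mice were not correlated for reference. The replicate block changed no other count of members by over 1.5 times. With it 9 of 9 were called in both comparisons with MO. Of all genes, 6.10% were called with the block in MY vs. MO and 4.62% in WO vs. MO. The cause of these changes was not tested. Depth behind each gene is unknown.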

Other observations

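*Mbp*, the most abundant oligodendrocyte marker, was listed at 5.36 in WO replicate 4 and at 12.2 to 14.2 on the log2 scale in the other 15 mice. WO replicate 4 was of batch 2, whose other mice were at 14.2 (WO replicate 5), 14.1 (MO replicate 4) and 14.1 (MO replicate 5). Every batch 1 mouse was lower than these, at 12.2 to 13.2. The part of the batch adjustment in these values was not tested.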
